A study of Mus musculus with 6 samples.

Results

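Ttr, F5, Folr1, Kl, Sostdc1, Enpp2, Prlr, Igfbp2 and Otx2 are 9 genes through which the choroid plexus secretes, takes up or regulates. They were taken by symbol from a table of 22584 mouse genes, and all 9 passed the filter on low counts. Brain tissue of wild-type (WT) mice was measured by RNA sequencing in 3 libraries extracted with the AllPrep DNA/RNA/Protein Mini Kit, which separates DNA, RNA and protein, and in 3 control libraries extracted with TRIzol, a phenol reagent. The labels name no treatment, age or brain region, and do not say whether each library is a separate animal, so p-values cover only library-to-library spread, technical or not. The 9 genes were chosen by their CPM and fold changes in these same 6 libraries and by their known place in the choroid plexus, so for them this contrast is given as a description, without a test.

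The choroid plexus is a folded epithelium inside the brain ventricles that makes cerebrospinal fluid and forms a barrier between it and the blood. Its cells release carrier proteins and growth factor regulators into the fluid and carry vitamins and hormones across. Transthyretin, the product of Ttr, is its most abundant secreted protein and carries thyroxine and retinol-binding protein. Several of the other genes are also made elsewhere in the brain: Enpp2 by oligodendrocytes, Igfbp2 by astrocytes and meningeal cells, Prlr by hypothalamic neurons, Kl by some neurons and Otx2 by dopamine neurons of the midbrain.

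Total counts ran from 38552252 to 50937858 in the AllPrep libraries and from 36395330 to 44995120 in the TRIzol libraries. Levels are counts per 1000000 counts of a library (CPM), with mean ± SD over 3 libraries per method. Brain markers were abundant in every library: the neuronal Snap25 averaged 2397 ± 287 CPM in AllPrep and 3212 ± 349 CPM in TRIzol, and the myelin gene Mbp averaged 1475 ± 410 and 2062 ± 206 CPM in the same order. Over all genes, 621 of 16325 passed edgeR's quasi-likelihood test at a Benjamini-Hochberg adjusted p below 0.05, which is 3.8%. Of these, 412 were higher in AllPrep (2.52%) and 209 lower (1.28%). Without AllPrep replicate 1, 2 or 3 the number that passed was 13, 27 or 28, and without TRIzol replicate 1, 2 or 3 it was 147, 2 or 205.

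Ttr (ENSMUSG00000061808) stood at 661, 562 and 1121 CPM in AllPrep replicates 1 to 3, against 12.3, 17.1 and 12.8 CPM in TRIzol replicates 1 to 3. It made up 0.0661%, 0.0562% and 0.112% of all counts in AllPrep and 0.00123%, 0.00171% and 0.00128% in TRIzol. Every AllPrep library lay far above every TRIzol library, and AllPrep replicate 3 stood above the other AllPrep libraries. The mean was 782 ± 299 CPM in AllPrep and 14.1 ± 2.64 CPM in TRIzol, a fold of 55.5 (edgeR log2 fold change 5.83, SE 0.32). In bulk tissue, fewer choroid plexus cells and less RNA per cell cannot be told apart.

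In 8 of the 9 genes every AllPrep library lay above every TRIzol library, and in Otx2 the methods overlapped. That pattern held for 13.4% of all 16325 tested genes, and since the choice used this contrast nothing is read from it. The log2 fold changes ran from 5.83 for Ttr to -0.01 for Otx2 with a median of 2.87, against -0.01 over all tested genes.

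**Figure D1:**
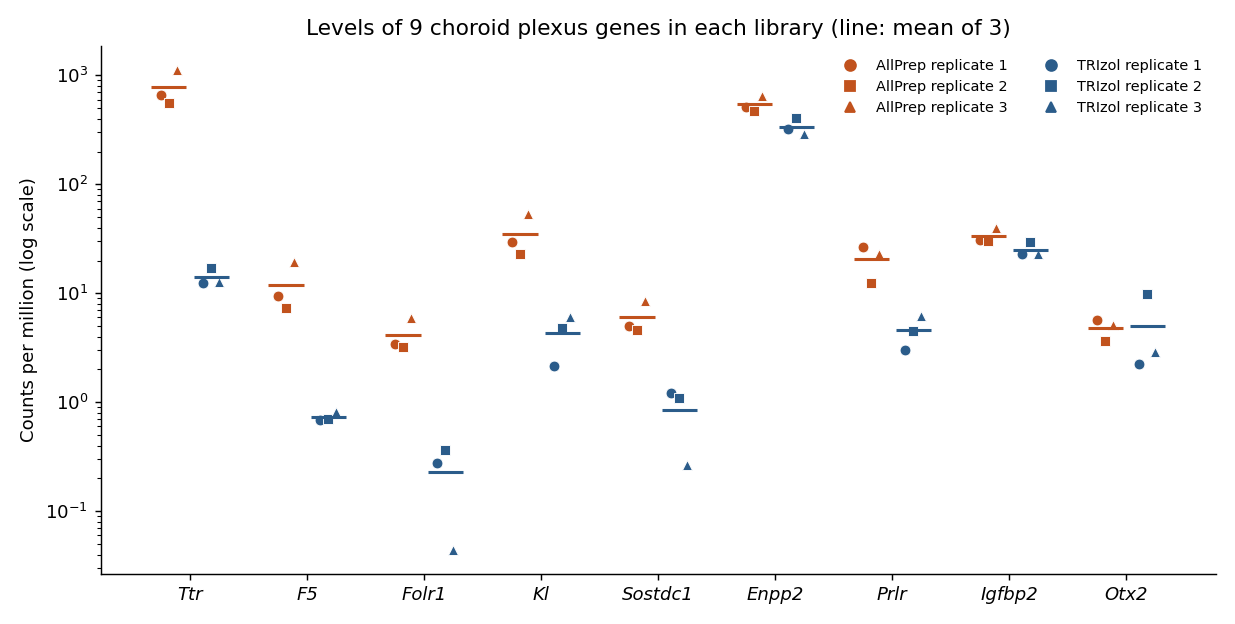
Level of each of the 9 genes in each library, in CPM on a log axis, with AllPrep libraries (orange) left of the TRIzol libraries (blue), a symbol for each replicate and lines at the mean of 3. AllPrep lies above TRIzol without overlap for every gene except Otx2, and the gap shrinks to a fold of 1.60 for Enpp2 and 1.34 for Igfbp2.

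F5 encodes coagulation factor V, a cofactor of thrombin generation that is best known as a liver product. It had 9.48, 7.26 and 19.2 CPM in AllPrep replicates 1 to 3, against 0.687, 0.701 and 0.822 CPM in TRIzol replicates 1 to 3. The TRIzol values were close together and rested on 25, 27 and 37 counts, and AllPrep replicate 3 was again the highest (log2 fold change 4.05, SE 0.40). Kl encodes klotho, a co-receptor for the hormone FGF23 that is also shed into body fluids. It had 29.3, 22.9 and 53.7 CPM in AllPrep, against 2.14, 4.78 and 6.02 CPM in TRIzol. The AllPrep libraries ordered as they did for Ttr and F5, while the TRIzol libraries were spread about their mean of 4.31 ± 1.98 CPM (log2 fold change 3.06, SE 0.43).

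The 250 bases upstream of the RefSeq start (build GRCm38.p6, plus strand) are shown for F5, Kl and Igfbp2, to set the sequences beside the levels. The log2 fold changes of these genes were 4.05, 3.06 and 0.46 in that order. The capitals mark CG dinucleotides, the sites of DNA methylation. The F5 window is chr1:164151585-164151834, the Kl window chr5:150952357-150952606 and the Igfbp2 window chr1:72824230-72824479.
F5: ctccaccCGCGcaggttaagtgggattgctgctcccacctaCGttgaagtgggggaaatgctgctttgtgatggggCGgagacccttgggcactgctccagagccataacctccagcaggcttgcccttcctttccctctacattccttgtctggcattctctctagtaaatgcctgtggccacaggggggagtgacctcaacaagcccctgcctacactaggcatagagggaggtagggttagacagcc
Kl: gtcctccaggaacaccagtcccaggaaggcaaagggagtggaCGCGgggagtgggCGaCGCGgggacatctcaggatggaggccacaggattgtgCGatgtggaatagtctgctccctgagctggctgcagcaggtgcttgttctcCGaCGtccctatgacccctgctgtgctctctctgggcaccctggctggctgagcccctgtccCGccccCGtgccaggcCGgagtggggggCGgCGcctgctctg
Igfbp2: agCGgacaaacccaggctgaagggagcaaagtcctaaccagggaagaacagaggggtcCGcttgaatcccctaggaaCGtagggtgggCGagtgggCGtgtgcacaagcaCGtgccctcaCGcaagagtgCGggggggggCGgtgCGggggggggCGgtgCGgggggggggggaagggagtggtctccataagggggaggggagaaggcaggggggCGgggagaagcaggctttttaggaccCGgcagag
They held 4 CG for F5, 13 for Kl and 14 for Igfbp2, and the median over 32851 RefSeq promoters of the same length was 6. F5 and Kl lay on either side of that median, and Igfbp2 lay beside Kl. None of these 3 windows held TAATCC, the core bound by Otx-type homeodomains, or TATAAA or CCAAT on either strand. These letters occurred in 6.25%, 12.4% and 33.8% of all such windows. Of 11 windows at the annotated starts of F5, Kl, Prlr, Igfbp2 and Otx2, TAATCC was in 1 (an Otx2 start), TATAAA in 1 (Otx2) and CCAAT in 2 (Prlr and Otx2). Ttr, Folr1, Sostdc1 and Enpp2 had no matched entry.

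Folr1 encodes folate receptor alpha, which the choroid plexus uses to pass folate into cerebrospinal fluid. It had 3.43, 3.22 and 5.89 CPM in AllPrep replicates 1 to 3, against 0.275, 0.363 and 0.0444 CPM in TRIzol replicates 1 to 3. The TRIzol values stand for 10, 14 and 2 counts, the lowest counts of any of the 9 genes (log2 fold change 4.26, SE 0.55). Folr1 passed the filter on low counts through its AllPrep libraries. Sostdc1 encodes a secreted antagonist of BMP and Wnt ligands. It had 5.0, 4.57 and 8.44 CPM in AllPrep, against 1.21, 1.09 and 0.267 CPM in TRIzol. As with Folr1, TRIzol replicate 3 was the lowest, with 12 counts against 44 and 42 in TRIzol replicates 1 and 2 (log2 fold change 2.87, SE 0.50).

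Prlr encodes the prolactin receptor, which the choroid plexus carries and which is thought to move prolactin into cerebrospinal fluid. It had 26.8, 12.6 and 23.2 CPM in AllPrep replicates 1 to 3, against 3.05, 4.54 and 6.16 CPM in TRIzol replicates 1 to 3. Unlike Ttr, it was highest in AllPrep replicate 1, and AllPrep replicate 2 was the lowest of its method (log2 fold change 2.21, SE 0.33).

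Enpp2 encodes autotaxin, a secreted enzyme that makes lysophosphatidic acid. It had 508, 469 and 646 CPM in AllPrep replicates 1 to 3, against 319, 408 and 289 CPM in TRIzol replicates 1 to 3. Igfbp2 encodes a binding protein for insulin-like growth factors. It had 30.8, 30.4 and 39.8 CPM in AllPrep, against 23.0, 29.3 and 22.9 CPM in TRIzol. Both genes kept most of their level in TRIzol, and in both TRIzol replicate 2 was the highest of its method (log2 fold changes 0.71, SE 0.16, and 0.46, SE 0.15).

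Otx2 encodes a homeodomain transcription factor needed to form and maintain the choroid plexus. It had 5.68, 3.66 and 5.16 CPM in AllPrep replicates 1 to 3, against 2.25, 9.94 and 2.87 CPM in TRIzol replicates 1 to 3. TRIzol replicate 2 was the highest of all 6 libraries, and the other TRIzol libraries were below all AllPrep libraries. The log2 fold change was -0.01 (SE 0.52) and turned to 0.94 without TRIzol replicate 2. The dopamine neuron genes Slc6a3, the dopamine transporter, and Th, tyrosine hydroxylase, were set beside it after their values were seen. Slc6a3 had 43.1, 3.24 and 1.12 CPM in AllPrep and 0.550, 97.4 and 0.222 CPM in TRIzol. Th had 19.5, 4.12 and 2.38 CPM in AllPrep and 2.23, 62.0 and 1.05 CPM in TRIzol. Both were highest in the library where Otx2 was highest and next highest in AllPrep replicate 1, and their part in the Otx2 values was not tested.

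Set against Ttr in the same library, the genes separated into those near it and those far from it. F5 had 14.3, 12.9 and 17.1 counts per 1000 Ttr counts in AllPrep replicates 1 to 3, against 55.8, 41.0 and 64.2 in TRIzol replicates 1 to 3. Folr1 had 5.19, 5.73 and 5.25 in AllPrep, against 22.3, 21.2 and 3.47 in TRIzol. The last value rests on 2 counts (exact 95% interval 0.419 to 12.6, counting error only), and through it the methods overlapped for Folr1. Kl had 44.2, 40.7 and 47.9 in AllPrep, against 174, 279 and 470 in TRIzol. Sostdc1 had 7.56, 8.13 and 7.53 in AllPrep, against 98.2, 63.7 and 20.8 in TRIzol. Within AllPrep the coefficients of variation of these ratios were 5.43% for Folr1, 4.34% for Sostdc1, 8.12% for Kl and 14.4% for F5. Ttr itself differed between those libraries. For Kl and F5 the exact 95% intervals of AllPrep replicates 2 and 3 did not overlap. Most small counts were even, so these intervals may be too narrow to settle whether the ratios moved beyond counting error. In TRIzol the same coefficients were 67.5%, 63.6%, 48.8% and 21.9%.

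The remaining genes stood much higher against Ttr in TRIzol. Prlr had 40.5, 22.3 and 20.7 counts per 1000 Ttr counts in AllPrep replicates 1 to 3, against 248, 266 and 481 in TRIzol replicates 1 to 3. Otx2 had 8.60, 6.51 and 4.60 in AllPrep, against 183, 581 and 224 in TRIzol. Enpp2 and Igfbp2 varied least against Ttr where Ttr was low, the reverse of Sostdc1 and Folr1. Enpp2 had 768, 835 and 576 in AllPrep, against 25879, 23832 and 22595 in TRIzol, with coefficients of variation of 18.5% and 6.88% in that order. Igfbp2 had 46.6, 54.1 and 35.5 in AllPrep, against 1868, 1713 and 1792 in TRIzol, with 20.6% and 4.33%. In 7 of 8 genes the ratio was lower in every AllPrep library, which is no more than the 99.6% of all tested genes for which that held and follows from the size of the difference in Ttr itself.

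**Figure D2:**
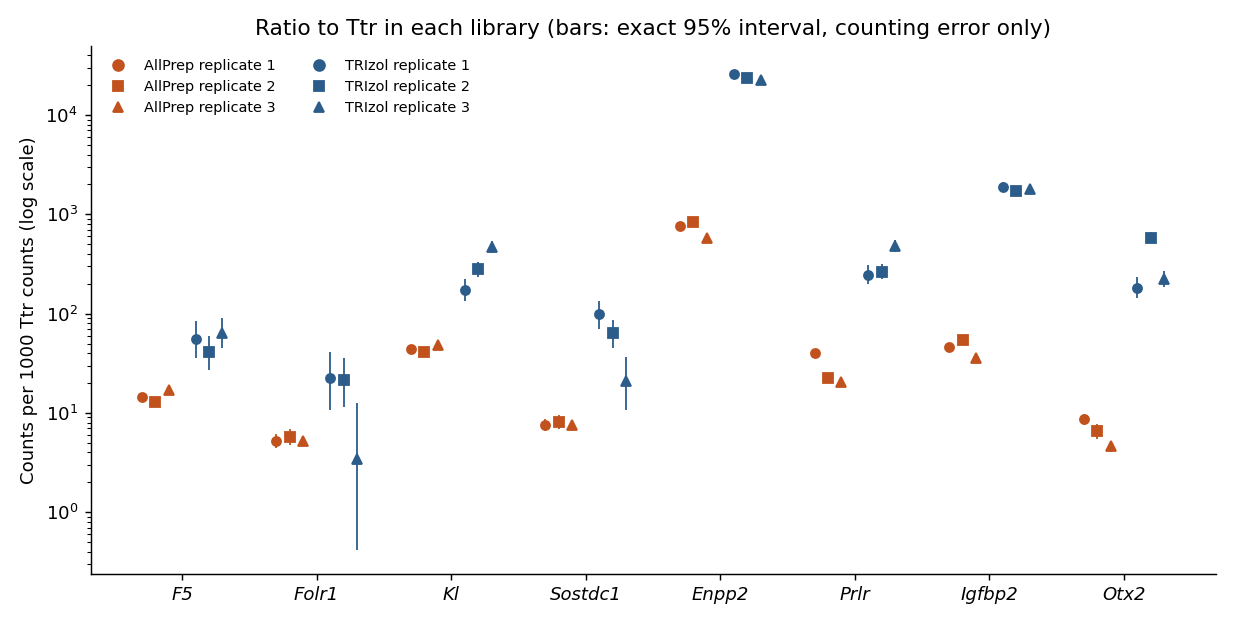
Counts of each gene per 1000 Ttr counts in each library on a log axis, AllPrep points (orange) left of TRIzol points (blue), with vertical bars for the exact 95% interval of counting error. Folr1, Sostdc1 and Kl form tight AllPrep clusters, the Folr1 value of TRIzol replicate 3 has a wide interval, and Enpp2, Igfbp2 and Otx2 stand apart by the widest gaps.

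The TRIzol mean of the ratio was 2.91 times the AllPrep mean for Folr1, 3.63 times for F5, 6.95 times for Kl and 7.87 times for Sostdc1. It was 11.9 times for Prlr, 33.2 times for Enpp2, 39.4 times for Igfbp2 and 50.1 times for Otx2. Read as increments, each 1000 CPM of Ttr that AllPrep had over TRIzol came with 40.4 CPM of Kl, 14.6 of F5, 6.71 of Sostdc1, 5.15 of Folr1 and 21.2 of Prlr. The slope among the AllPrep libraries alone was 54.5 CPM for Kl, 21.2 for F5, 7.10 for Sostdc1, 4.95 for Folr1 and 10.6 for Prlr, nearest to the increment for Folr1 and Sostdc1. For Enpp2 the increment was 264 CPM, with a range of 232 to 308 when each library was left out, and for Igfbp2 it was 11.2 CPM (9.25 to 13.9), with AllPrep slopes of 311 and 17.7 CPM. Otx2 had an increment of -0.241 CPM, with a range from -2.05 to 2.96 that includes 0.

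Among the genes themselves, likeness was measured as the SD over the 6 libraries of the log2 ratio of their levels, for all 36 pairs, where a small SD means that 2 genes kept a fixed ratio. Enpp2 and Igfbp2 were the closest pair, with an SD of 0.15. F5 and Kl followed with 0.62, Kl and Prlr with 0.63, Igfbp2 and Otx2 with 0.64, Enpp2 and Otx2 with 0.65 and Folr1 and Sostdc1 with 0.78. The neighbours of Ttr were F5 (1.06), Folr1 (1.11), Kl (1.54) and Sostdc1 (1.67), while Prlr (2.02), Enpp2 (2.78), Igfbp2 (2.92) and Otx2 (3.08) were farther away.

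These distances differed by method. Within AllPrep alone Folr1 and Sostdc1 had an SD of 0.02, Ttr and Sostdc1 0.06, Ttr and Folr1 0.08 and F5 and Kl 0.09. Within TRIzol the same pairs had 0.32, 1.11, 1.26 and 0.68. Folr1 and Sostdc1 had 124 to 300 and 176 to 430 counts in AllPrep, against 2 to 14 and 12 to 44 in TRIzol. Counting error was not taken out of these SDs, so an SD of 0.02 over 3 libraries does not show a fixed ratio. The part of count depth in the difference between the methods was not tested. Enpp2 and Igfbp2 stayed close in both, with 0.05 in AllPrep and 0.08 in TRIzol. Kl was apart from Folr1 and Sostdc1 in TRIzol, with SDs of 1.93 and 1.81, against 0.19 and 0.18 in AllPrep. In TRIzol replicate 3, Kl and Prlr had their highest TRIzol values and Folr1 and Sostdc1 their lowest.

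**Figure D3:**
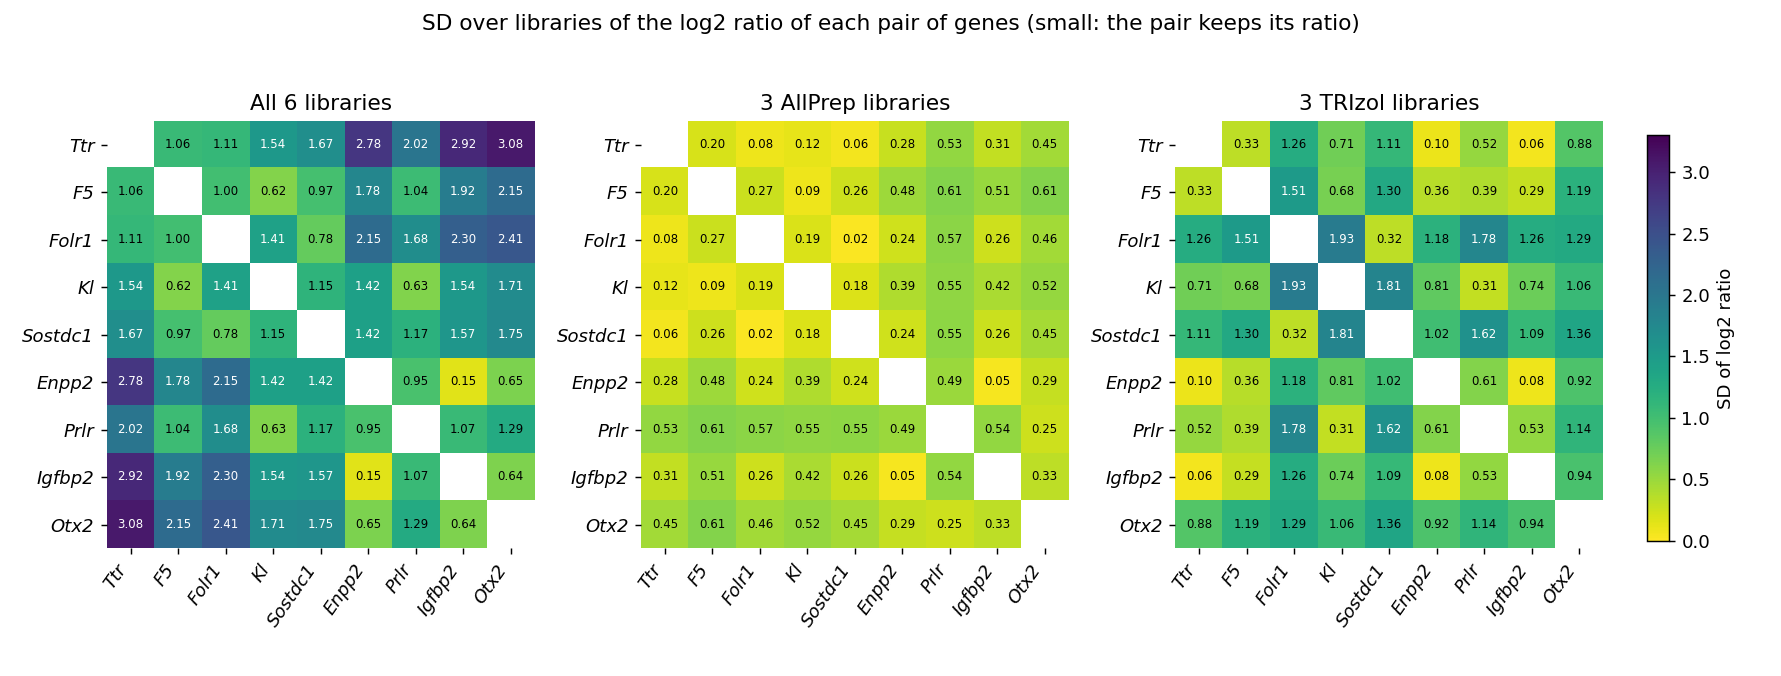
SD of the log2 ratio for every pair of the 9 genes, over all 6 libraries, the 3 AllPrep libraries and the 3 TRIzol libraries, where lighter (yellow) cells are pairs whose ratio varied less. Folr1 and Sostdc1 are close in AllPrep (0.02) and less so in TRIzol (0.32), where their counts were lower. Enpp2 and Igfbp2 are close in every panel.

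Of 14228 genes ranked by the same SD against Ttr, the 10 nearest that are not among the 9 were Tmem72 (0.66), Ucn3 (0.69), Calml4 (0.77), Slc4a5 (0.89), Kcne2 (0.98), Mfrp (1.03), Prr32 (1.23), Clic6 (1.27), Cldn2 (1.27) and Spata18 (1.42). Slc4a5 moves bicarbonate with sodium, Kcne2 is a subunit of potassium channels, Cldn2 is a tight junction protein and Ucn3 is a peptide of the corticotropin-releasing factor family. Tmem72 had 7.59, 5.40 and 14.2 CPM in AllPrep, against 0.220, 0.311 and 0.400 CPM in TRIzol. Ucn3 had no count in any TRIzol library, so its place depends on the pseudocount of 1. With counts plus 5, Ucn3 and Spata18 left the 10 nearest. Spata18 had no count in TRIzol replicate 2, Prr32 had none in TRIzol replicate 3, and Calml4 averaged 0.111 ± 0.0445 CPM in TRIzol. The places of such genes rest on few TRIzol counts. In the same ranking F5 was at place 7, Folr1 at 8, Kl at 18, Sostdc1 at 21 and Prlr at 48, while Enpp2 was at 464, Igfbp2 at 1098 and Otx2 at 3263. The order rests on the gap between the methods. Ranked over the AllPrep libraries alone, 1 of the 10 nearest genes was shared, and over the TRIzol libraries alone 0 were shared.

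Dividing by length is only a rough way to compare different genes, since coverage along transcripts was not examined. Per kilobase of the longest annotated transcript, the AllPrep order began with Ttr at 659 CPM per kb, Enpp2 at 175 and Igfbp2 at 25.8. Kl followed at 6.06, Sostdc1 at 3.37, Folr1 at 3.18, Prlr at 2.10, Otx2 at 1.87 and F5 at 1.61, all in CPM per kb. From Kl downward each neighbour overlapped the next over the 3 libraries, while the first 3 were apart from their neighbours. In TRIzol the order began with Enpp2 at 109 CPM per kb, Igfbp2 at 19.2 and Ttr at 11.9. It went on with Otx2 at 1.94, Kl at 0.740, Sostdc1 at 0.480, Prlr at 0.463, Folr1 at 0.173 and F5 at 0.0991. In TRIzol the neighbours Otx2 and Kl, Kl and Sostdc1, Sostdc1 and Prlr, and Folr1 and F5 overlapped, and the other neighbours did not. Ttr was the most abundant of the 9 in AllPrep and stood behind Enpp2 and Igfbp2 in TRIzol. With coding length in place of transcript length, the TRIzol means of Ttr and Igfbp2 changed places, at 31.9 and 27.4 CPM per kb with overlapping libraries. With the merged length of all annotated exons, Igfbp2 and Ttr also overlapped in TRIzol. In AllPrep, Prlr was at place 7 by longest transcript, 8 by merged exons and 5 by coding length.

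A list of 15 further choroid epithelium genes, among them channels, transporters, keratins and a junction protein, was written with earlier results of these data known. Of these, 9 rose and 6 did not pass in edgeR, where 2.52% of all tested genes were higher. The filter kept a gene with enough counts in at least 3 libraries. Calml4 (0.111 ± 0.0445 CPM in TRIzol) and Krt8 (0.0698 ± 0.0853 CPM in TRIzol) passed it through AllPrep, and for such genes a rise was nearly the only possible call. With no filter beyond a count above 0, 9 also rose. The median log2 fold change of the list was 3.40. The genes that rose were Tmem72, Calml4, Slc4a5, Kcne2, Krt8, Cldn2, Clic6, Aqp1 and Kcnj13, with log2 fold changes from 4.87 to 2.72. Aqp1, the water channel of the fluid-facing membrane, averaged 4.89 ± 2.50 CPM in AllPrep and 0.476 ± 0.157 CPM in TRIzol (edgeR adjusted p = 0.0227). The 2 most abundant genes of the list did not pass: Slc4a2, an anion exchanger, averaged 37.6 ± 1.22 CPM in AllPrep and 37.2 ± 3.20 CPM in TRIzol (edgeR adjusted p = 0.725), and Cab39l 45.8 ± 1.90 and 41.5 ± 2.47 CPM in the same order (edgeR adjusted p = 0.185). They made up 41.6% to 60.0% of the list's counts in AllPrep and 76.4% to 87.9% in TRIzol. The number that rose was 3, 5 and 4 without AllPrep replicates 1, 2 and 3, and 7, 0 and 6 without TRIzol replicates 1, 2 and 3. In the fit with 0 calls, 12 of the 15 had an unadjusted p below 0.05.

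When this list took the place of Ttr as the yardstick, the picture of the 9 genes changed. Against its summed counts, F5, Folr1, Kl, Sostdc1 and Prlr were higher in every AllPrep library, with log2 differences of 3.15, 3.36, 2.22, 1.94 and 1.39. Enpp2 (-0.12) and Otx2 (-0.78) overlapped and Igfbp2 (-0.37) was lower in every AllPrep library. Without Slc4a2 and Cab39l, a choice made after the data were seen, F5, Folr1 and Kl were still higher in every AllPrep library at 1.54, 1.77 and 0.74. Sostdc1 (0.28) and Prlr (-0.13) then overlapped, and Enpp2 (-1.66), Igfbp2 (-1.89) and Otx2 (-2.10) were lower in every AllPrep library. Of the genes left in the shortened list, Slc13a4 was the most abundant in every TRIzol library and did not pass (edgeR adjusted p = 0.338). It had 16.6, 11.7 and 24.6 CPM in AllPrep, against 4.40, 16.1 and 12.2 CPM in TRIzol. The shortened yardstick thus also leaned on 1 gene in TRIzol, and these differences depend on it.

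A list of 15 other secreted and receptor genes of the choroid plexus had 3 that rose and 12 that did not pass (median log2 fold change 0.85). Over all tested genes 2.52% were higher. Wfdc2, a secreted protease inhibitor family member, averaged 1.19 ± 0.333 CPM in AllPrep and 0.175 ± 0.0184 CPM in TRIzol (edgeR adjusted p = 0.0202). Ecrg4, a secreted peptide precursor, averaged 7.45 ± 3.10 and 1.15 ± 0.220 CPM in the same order (edgeR adjusted p = 0.0201). Htr2c, a serotonin receptor that neurons also carry, averaged 108 ± 14.1 and 60.2 ± 10.7 CPM (edgeR adjusted p = 0.0316). In DESeq2 4 passed, and in edgeR 0, 1 and 1 without AllPrep replicates 1, 2 and 3 and 2, 0 and 2 without TRIzol replicates 1, 2 and 3. The abundant secreted proteins Clu and Cst3, which astrocytes or microglia also make, did not pass, with 752 ± 29.0 and 651 ± 46.4 CPM in AllPrep against 695 ± 41.0 and 753 ± 61.8 CPM in TRIzol.

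Among the partners with which the 9 gene products work, few genes passed. In the list of thyroid hormone and retinol handling, 0 of 12 genes passed in edgeR, 1 passed in DESeq2 and 4 had an unadjusted p below 0.05 (median log2 fold change 0.20). Slco1c1, a thyroid hormone transporter, averaged 55.8 ± 1.93 CPM in AllPrep and 49.0 ± 4.61 CPM in TRIzol (edgeR adjusted p = 0.171). The thyroid hormone receptor Thra and its target Klf9 had log2 fold changes of 0.34 and -0.05. In the coagulation list, 0 of 9 tested genes passed in edgeR or DESeq2 and 0 had an unadjusted p below 0.05 (median 0.26). The anticoagulants Pros1 and Thbd had log2 fold changes of 0.26 and 0.45, the abundant protease inhibitor Serpine2 had -0.14 and the tissue factor gene F3 had -0.16.

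In the folate list, 0 of 11 tested genes passed in edgeR, 1 passed in DESeq2 and 3 had an unadjusted p below 0.05 (median log2 fold change -0.01). Mthfd2, a mitochondrial folate enzyme, averaged 8.74 ± 0.942 CPM in AllPrep and 12.3 ± 0.766 CPM in TRIzol (edgeR adjusted p = 0.0604). Mtr, methionine synthase, had a log2 fold change of 0.29 and the abundant Mthfd1 had 0.01. In the klotho and FGF list, 0 of 9 tested genes passed in either tool and 3 had an unadjusted p below 0.05 (median -0.17). Vdr, the vitamin D receptor, averaged 0.737 ± 0.328 CPM in AllPrep and 0.317 ± 0.124 CPM in TRIzol. Adam10, a protease that sheds klotho, and the receptor Fgfr3 had log2 fold changes of 0.21 and -0.13.

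Of 12 genes in the Wnt and BMP list, 1 rose and 1 fell in edgeR (median log2 fold change 0.18), against 2.52% higher and 1.28% lower of all tested genes. Lrp6, the Wnt co-receptor to which Sostdc1 binds, averaged 71.3 ± 1.55 CPM in AllPrep and 58.1 ± 2.98 CPM in TRIzol (edgeR adjusted p = 0.0456). Dkk3, a secreted protein of the Dickkopf family, averaged 243 ± 24.2 CPM in AllPrep and 400 ± 18.9 CPM in TRIzol (edgeR adjusted p = 0.0255). The call of Lrp6 was lost with library size alone, without the filter, with the replicate block and with any library left out, and 4 of the 12 genes passed in DESeq2. With each library left out, 0 genes of the list passed except 1 without TRIzol replicate 3. In the lysophosphatidic acid list around Enpp2, 0 of 9 tested genes passed in edgeR, 2 passed in DESeq2 and 2 had an unadjusted p below 0.05 (median -0.01). The receptor Lpar1, an oligodendrocyte gene in brain, averaged 33.0 ± 6.48 CPM in AllPrep and 48.7 ± 8.53 CPM in TRIzol (edgeR adjusted p = 0.119), opposite in sign to Enpp2. The lipid phosphatase Plpp3 averaged 239.7 ± 6.18 and 205 ± 17.3 CPM in the same order.

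In the prolactin list, 0 of 9 genes passed in edgeR, 1 passed in DESeq2 and 2 had an unadjusted p below 0.05 (median log2 fold change -0.02). Stat3, a signal transducer of cytokine receptors, averaged 58.2 ± 4.06 CPM in AllPrep and 46.0 ± 5.58 CPM in TRIzol (edgeR adjusted p = 0.0691). The growth hormone receptor Ghr and the kinase Jak2 had log2 fold changes of 0.30 and -0.02. Of 13 genes in the insulin-like growth factor list around Igfbp2, 2 rose in edgeR (median 0.34), where 2.52% of all tested genes were higher. Igf1r averaged 91.8 ± 5.64 CPM in AllPrep and 67.4 ± 2.42 CPM in TRIzol (edgeR adjusted p = 0.0296), and the insulin receptor Insr 82.4 ± 2.10 and 66.9 ± 2.60 CPM (edgeR adjusted p = 0.0388). With each library left out 0 genes of this list passed except 1 without TRIzol replicate 3, and 0 passed with the replicate block, 1 with library size alone and 4 in DESeq2. Irs2, an adaptor of both receptors, and Igfbp5 had log2 fold changes of 0.47 and -0.13.

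Among 10 further transcription factors of the choroid plexus and ventricle lining, 0 passed in edgeR, 2 passed in DESeq2 and 4 had an unadjusted p below 0.05 (median log2 fold change 0.26). Rfx3, a regulator of cilia genes, averaged 83.9 ± 29.2 CPM in AllPrep and 41.0 ± 11.8 CPM in TRIzol (edgeR adjusted p = 0.0695). Foxj1, the master regulator of motile cilia, averaged 10.3 ± 1.35 and 6.60 ± 1.79 CPM in the same order, and Meis2 had a log2 fold change of 0.23. Otx1, the relative of Otx2, had 4.12, 3.92 and 3.14 CPM in AllPrep, against 5.74, 4.93 and 4.44 CPM in TRIzol. It was lower in every AllPrep library, as were 20.6% of all tested genes.

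Marker genes of other brain cells were summed in each library to see which moved beside the 9 genes. The choroid epithelium list summed to 165, 136 and 202 CPM in AllPrep replicates 1 to 3, against 82.2, 107 and 99.7 CPM in TRIzol replicates 1 to 3, without overlap. In each TRIzol library 1 of its 15 genes had no count, Krt18, Krt8 or Lmx1a. Ependymal markers, from the ciliated cells that line the ventricles, summed to 43.3, 30.5 and 41.4 CPM in AllPrep, against 21.7, 14.0 and 11.7 CPM in TRIzol. Of 9 tested ependymal genes 4 rose in edgeR, Dnah11 (log2 fold change 2.73), Hydin (2.25), Rsph1 (1.54) and Cfap126 (1.43), where 2.52% of all tested genes were higher. In DESeq2 7 passed, and with each library left out 0 passed except 4 without TRIzol replicate 1. The choroid plexus joins the ventricle wall, and the ependymal sums also did not overlap. Their part in the values of the 9 genes was not tested.

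Hypothalamic markers summed to 58.1, 53.8 and 33.9 CPM in AllPrep, against 13.1, 10.9 and 10.8 CPM in TRIzol. Of 10 genes 4 rose in edgeR, Oxt (log2 fold change 3.48), Sim1 (3.29), Trh (2.51) and Hdc (1.66), and the abundant Pmch averaged 10.4 ± 11.7 CPM in AllPrep and 0.583 ± 0.349 CPM in TRIzol without passing. Prlr is also made by hypothalamic neurons. In DESeq2 7 of these 10 passed, and in edgeR 0, 1 and 1 without AllPrep replicates 1, 2 and 3 and 2, 0 and 2 without TRIzol replicates 1, 2 and 3. Oxt, the oxytocin gene, had 13.1, 3.79 and 3.93 CPM in AllPrep, against 0.934, 0.104 and 0.845 CPM in TRIzol. The order of the libraries differed between these genes: in AllPrep both Oxt and Prlr were highest in replicate 1, while in TRIzol replicate 1 Oxt was at its TRIzol highest and Prlr at its lowest. Pmch had 2.36, 23.8 and 5.10 CPM in AllPrep and was highest in replicate 2, where Prlr was lowest. Trh had 14.6, 4.67 and 11.3 CPM in AllPrep, the same order of libraries as Prlr. In TRIzol Trh had 1.21, 2.23 and 2.02 CPM, lowest in replicate 1 like Prlr but highest in replicate 2. The part of hypothalamic RNA in the Prlr values was not tested.

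**Figure D4:**
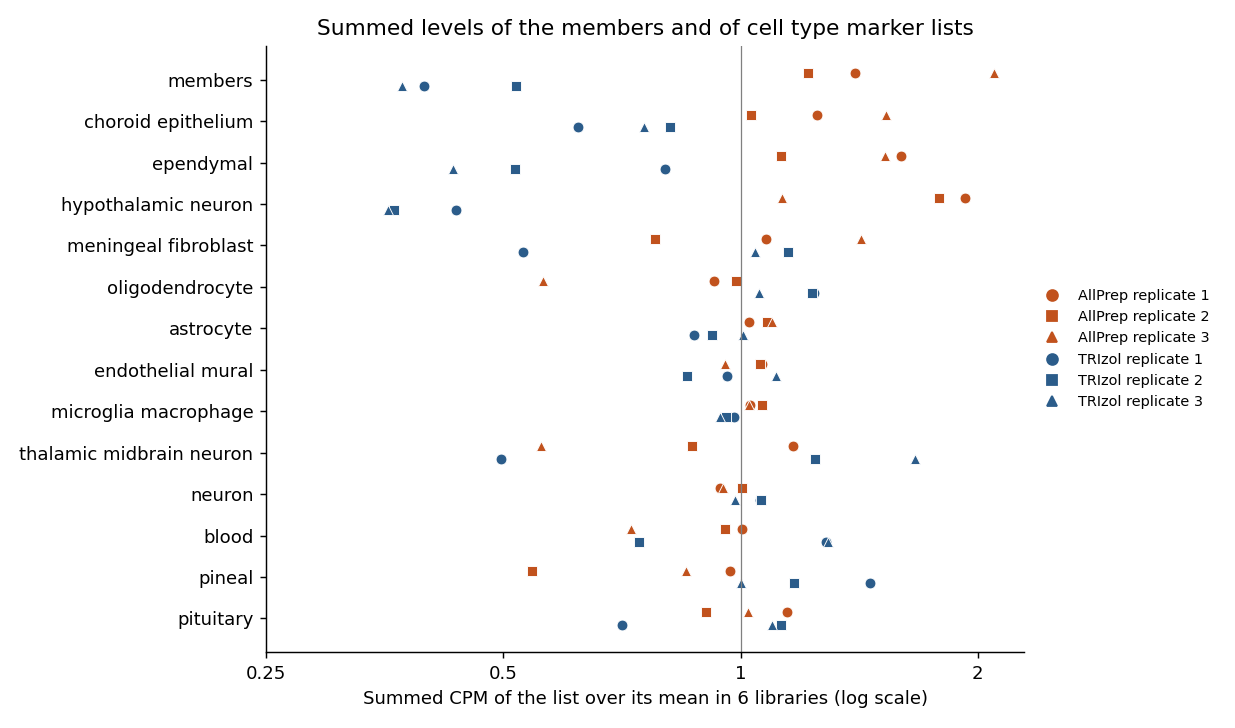
Summed level of the 9 genes (top row, members) and of each marker list in each library, relative to the mean of the 6 libraries on a log axis, with AllPrep points (orange) just above TRIzol points (blue) in each row. The choroid epithelium, ependymal, hypothalamic, astrocyte and microglia sums lie higher in AllPrep without overlap, and the oligodendrocyte sums lie lower without overlap. Slc1a2 makes up most of the astrocyte sum, and the median log2 fold change of the astrocyte list was 0.03.

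For Enpp2 the other known source is the oligodendrocyte. Oligodendrocyte markers summed to 5745, 6119 and 3483 CPM in AllPrep replicates 1 to 3, against 7681, 7649 and 6540 CPM in TRIzol replicates 1 to 3, and 0 of 12 passed in edgeR or DESeq2, while 7 had an unadjusted p below 0.05 (median log2 fold change -0.46). AllPrep replicate 3 had the highest Enpp2 and the lowest oligodendrocyte sum of all 6 libraries, while TRIzol replicate 3 had the lowest of both within its method. The part of oligodendrocyte RNA in the Enpp2 values was not tested.

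For Igfbp2, meningeal fibroblast markers summed to 148, 107 and 195 CPM in AllPrep, against 72.8, 158 and 143 CPM in TRIzol, with overlap and 0 of 11 genes past the threshold in edgeR or DESeq2 and 0 with an unadjusted p below 0.05. The abundant Dcn and Fmod had log2 fold changes of 0.42 and 0.44. Within each method the library with the highest Igfbp2 also had the highest meningeal sum, and in AllPrep both had the same order of libraries. Igfbp2 was nearly equal in AllPrep replicates 1 and 2, at 30.8 and 30.4 CPM, and Ttr, F5 and Kl had that order too. In TRIzol the sum was 72.8 CPM in replicate 1 and 143 CPM in replicate 3, while Igfbp2 was at 23.0 and 22.9 CPM. Astrocyte markers summed to 4833, 5088 and 5162 CPM in AllPrep, against 4115, 4341 and 4741 CPM in TRIzol. Slc1a2 made up most of these sums, with 3046 ± 177 CPM in AllPrep and 2389 ± 210 CPM in TRIzol. The median log2 fold change of the list was 0.03, and 4 of its 7 genes had a positive one. Of these 7 genes Slc1a3, a glutamate transporter, rose in edgeR (log2 fold change 0.42, adjusted p = 0.0372), where 2.52% of all tested genes were higher. Its call was lost with the replicate block and with any library left out, and the abundant Slc1a2 and Aldoc had log2 fold changes of 0.39 and -0.23. The part of meningeal or astrocyte RNA in the Igfbp2 values was not tested.

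**Figure D5:**
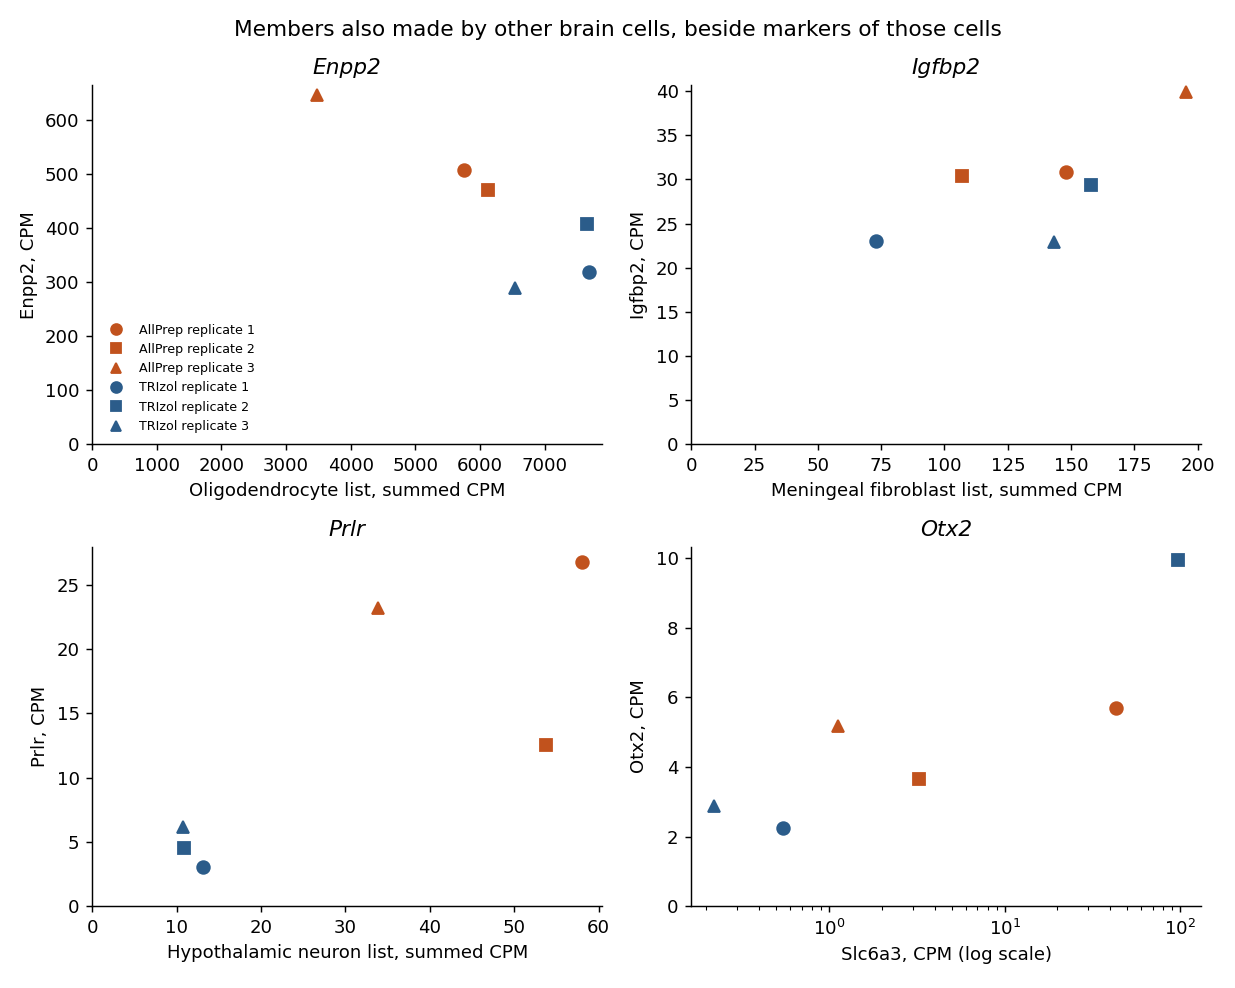
Enpp2, Igfbp2, Prlr and Otx2 in each library (CPM, vertical axis) against a marker sum or gene of another brain source (CPM, horizontal axis, on a log scale for Slc6a3), with AllPrep points in orange and TRIzol points in blue. Enpp2 is highest in the AllPrep library with the lowest oligodendrocyte sum, but within TRIzol the lowest of both fall in replicate 3, and Otx2 is highest in the TRIzol library with 97.4 CPM of Slc6a3.

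The remaining marker lists held no gene past the edgeR threshold. Endothelial and mural markers summed to 503, 499 and 450 CPM in AllPrep and 453, 403 and 523 CPM in TRIzol, with 0 of 12 past the threshold in edgeR, 1 in DESeq2 and 2 with an unadjusted p below 0.05. Its abundant genes Flt1 and Rgs5 had log2 fold changes of 0.46 and 0.06. Microglia and macrophage markers summed to 264, 273 and 263 CPM in AllPrep and 251, 245 and 241 CPM in TRIzol, a narrow gap without overlap, with 0 of 11 past the threshold in edgeR, 2 in DESeq2 and 3 with an unadjusted p below 0.05. Csf1r and Cx3cr1 had 0.22 and 0.30. Blood markers summed to 15.4, 14.6 and 11.1 CPM in AllPrep and 19.6, 11.4 and 19.8 CPM in TRIzol, with 0 of 4 tested genes past the threshold in either tool and 0 with an unadjusted p below 0.05, and the globins Hba-a1 and Hbb-bt had -0.33 and -0.69. The blood sums of the methods overlapped.

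Neuronal markers summed to 7447, 7959 and 7511 CPM in AllPrep and 8387, 8412 and 7781 CPM in TRIzol, with 0 of 7 past the threshold in edgeR, 3 in DESeq2 and 4 with an unadjusted p below 0.05. The synaptic genes Snap25 and Syt1 had log2 fold changes of -0.39 and -0.03. Thalamic and midbrain markers summed to 391, 291 and 187 CPM in AllPrep and 166, 416 and 558 CPM in TRIzol, with 0 of 8 past the threshold in either tool and 0 with an unadjusted p below 0.05, and the abundant Rora and Slc17a6 had -0.25 and -0.28. These sums varied widely within each method and overlapped. Pineal and pituitary markers, from glands that lie near the ventricles, were low in every library: they summed to 1.21, 0.674 and 1.06 CPM and to 2.14, 1.69 and 1.90 CPM in AllPrep, against 1.81, 1.45 and 1.24 CPM and 1.32, 2.10 and 2.04 CPM in TRIzol. Of the pineal genes Tph1 and Aanat had log2 fold changes of -0.20 and -0.70, and the pituitary gene Tshb had 0.20, while Gh was too low to be tested. Of 2 tested pineal genes and 1 pituitary gene, 0 passed in edgeR or DESeq2 and 0 had an unadjusted p below 0.05.

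Over the genes of all these lists, 24 rose and 1 fell of 215 tested in edgeR, against 2.52% higher and 1.28% lower of all tested genes. The lists were written with earlier results of these data known, so nothing is read from that difference. Without AllPrep replicates 1, 2 and 3 the numbers past the threshold were 3, 7 and 6, and without TRIzol replicates 1, 2 and 3 they were 15, 0 and 13. In the fit with 0 calls, 70 of 220 tested genes had an unadjusted p below 0.05.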

How the data were processed

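RNA of wild-type mouse brain was measured in 3 AllPrep and 3 TRIzol libraries, made by T7 amplification and read as pairs of 150 bases per the labels' protocols. The values the authors deposited are raw counts, whole and not normalized. The submitters' processing notes name STAR 2.7.9a, cutadapt, FastQC 0.11.9, featureCounts, limma 3.60.6 and build GRCm39. How strand and multi-mapping reads were handled is not stated in those notes. From 22692 rows, 108 that repeated an Ensembl ID were dropped, leaving 22584. Of counts from 1 to 20, 64.2% to 70.9% were even, so counting intervals may be too narrow. Libraries of a method differed beyond sampling noise (14.3 to 47.1 in chi-square per degree of freedom).

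The test across genes was edgeR 4.0.16, run in R 4.3.3 (TMM, filterByExpr, quasi-likelihood F-test, two-sided), and alternatives included DESeq2 1.42.0, its size factors, library size alone, no filter, halved counts, the replicate block and each library left out. The edgeR step was tested on simulated data. Log2 fold changes are AllPrep over TRIzol. Ratios used counts, likeness used counts plus 1, and lengths came from GENCODE vM21 (GRCm38, names and lengths only). Same-numbered libraries had deviations correlated at -0.09, -0.01 and 0.20 over 14010 genes, against -0.19 to 0.25 for differently numbered libraries. Deviations from a mean of 3 libraries are tied to each other, so these values do not settle whether the numbers pair the libraries.

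The 9 genes, the 23 lists (250 entries, 244 matched by symbol) and the tests were chosen with earlier results of these data known. Named were the 9 genes, the 10 genes nearest to Ttr (mean in AllPrep 1 CPM or more, no unnamed gene models), the 2 smallest p and 2 most abundant tested genes of each pathway list, and the 2 most abundant and all that passed of each marker list; others are named with their values. Some genes under this rule are not reported here. Promoter sequences are from RefSeq (GRCm38.p6).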

Additional observations from a re-analysis of the deposited data

How the results depend on the processing

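The 9 genes' log2 fold changes kept their sign for all but Otx2, which was -0.01 and became 0.29 with the replicate block, 0.14 without AllPrep replicate 2 and 0.94 without TRIzol replicate 2. Their median, 2.87, ranged from 2.49 to 3.10 with each library left out and from 2.83 to 2.89 otherwise. In edgeR 6 of the 9 were past the threshold, against 3.8% of all tested genes, and nothing is read from this because the choice used the contrast. That number was 1 to 6 with each library left out, 8 in DESeq2, 7 without the filter and 5 with the replicate block.

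Over all genes, 621 passed in edgeR, 2095 in DESeq2 (1275 higher) and 236 with the replicate block (195 higher, 41 lower, or 82.6% higher), and 2 to 205 with each library left out. Scaled by library size alone, 343 genes were higher and 305 lower, 52.9% higher against 66.3%. The replicate numbers are not known to pair the libraries.

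Of 8 genes, 7 had a lower ratio to Ttr in every AllPrep library, and 7 to 8 with a library left out. With the choroid epithelium list as denominator 1 did, and 3 did without Slc4a2 and Cab39l, a choice made after the data were seen. Of the 10 genes nearest to Ttr, 8 were shared with counts plus 5, 1 over the AllPrep libraries alone and 0 over the TRIzol libraries alone. The causes were not tested. Depth limits Folr1 and Sostdc1 in TRIzol, where 2 and 12 counts were the lowest values.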
